A study of Mus musculus with 4 samples.

Results

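The genes described here are 10 components of the circadian clock, Arntl, Clock, Npas2, Cry1, Cry2, Per1, Per2, Nr1d1, Nr1d2 and Dbp. They were taken by name from the array's probe-to-gene table, which held 15 probe sets for them. All 10 were among the 12393 genes measured by the 22690 probe sets of the array. The genes were chosen with values of these arrays known, so every value below is a description of 4 arrays. Each of the 4 groups was 1 array made from 1 RNA sample, so a difference between a pair of groups had no replicate error and was not tested. An additive fit of setting and Ets2 label over the 4 arrays, which leaves 1 residual degree of freedom, was not run, since the genes were chosen on these values.

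The arrays measured macrophages of female mice that carried a yellow fluorescent protein (YFP) in macrophages. YFP-positive cells were sorted from remodeling mammary glands without tumor, or from mammary tumors at an early stage, caused by the PyMT (polyoma middle T) oncogene. The remodeling control was labelled wild type. The tumor control was wild type in its title but carried 1 copy of Ets2 in its source label. In both Ets2-deficient groups, each copy of Ets2, a transcription factor gene of the ETS family, was deleted, per the source labels. The labels give neither the promoter that drove the deletion, nor the number or age of the mice, nor the hour of day at which tissue was taken.

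The circadian clock is a feedback loop of transcription that runs in most cells of the body, macrophages among them. ARNTL (also called BMAL1) pairs with CLOCK or NPAS2 and switches on the Per and Cry genes, whose proteins then inhibit that pair. The same pair drives Nr1d1 and Nr1d2, which encode the REV-ERB repressors. These in turn repress Arntl and Npas2, so that in cells with a running clock Arntl transcripts are abundant when those of Nr1d1, Dbp and Per2 are scarce. Dbp encodes a transcription factor that carries the rhythm to output genes. ARNTL and its partner bind E-box letters in DNA, REV-ERB and ROR proteins bind ROR elements, and DBP binds D-boxes.

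Stretches of RefSeq promoter sequence (build GRCm38.p6) show where such letters stand near the starts of these genes. The table held 13 windows for 9 of the 10 genes and none for Per2. Each window ran from 250 bases before to 50 bases after an annotated start. Both strands were searched for CACGTG (E-box), CACGTT (E-prime box), TAGGTCA (core of the ROR element), TTATGTAA and TTACGTAA (D-boxes). The stretches below hold at least 1 match each, and are shown because the genes belong to different arms of the loop. Capitals mark the matched letters, and AACGTG is CACGTT read on the other strand.
Arntl (chr7:113207530-113207559, + strand): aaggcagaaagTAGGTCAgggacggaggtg
Per1 (chr11:69098736-69098835, + strand): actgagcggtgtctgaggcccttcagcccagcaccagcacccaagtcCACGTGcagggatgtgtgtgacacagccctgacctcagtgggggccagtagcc
Cry1 (chr10:85185072-85185171, - strand): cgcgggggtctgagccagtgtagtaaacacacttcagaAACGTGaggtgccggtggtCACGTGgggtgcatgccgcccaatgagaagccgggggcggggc
Cry2 (chr2:92434183-92434282, - strand): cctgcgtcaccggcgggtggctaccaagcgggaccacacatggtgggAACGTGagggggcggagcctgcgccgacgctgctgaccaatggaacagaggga
Nr1d1 (chr11:98775378-98775477, - strand): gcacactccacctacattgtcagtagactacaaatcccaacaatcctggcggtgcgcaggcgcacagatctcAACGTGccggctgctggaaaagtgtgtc
Per3 (chr4:151044794-151044893, - strand): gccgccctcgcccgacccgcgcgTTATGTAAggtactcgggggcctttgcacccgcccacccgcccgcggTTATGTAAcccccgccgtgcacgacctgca
Tef (chr15:81802499-81802598, + strand): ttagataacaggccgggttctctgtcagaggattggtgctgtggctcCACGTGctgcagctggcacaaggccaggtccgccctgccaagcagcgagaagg

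The E-box CACGTG was found for Per1, 166 bases before its start, and for Cry1, 60 bases before its start. Over all 32851 windows of the table, 7.15% held it, as did 8.09% of all genes with a window. The E-prime letters CACGTT were found for Cry1, Cry2 and Nr1d1, in 4.68% of all windows and for 5.44% of all genes. The single ROR element core stood at base 31 of an Arntl transcript, and 2.61% of all windows and 2.97% of all genes held one. No D-box letters were found for the 9 genes. Per3, a further Period gene, had TTATGTAA 205 and 158 bases before its start (0.938% of all windows, 1.11% of all genes). Tef, a D-box factor related to Dbp, had CACGTG in both of its windows. Dbp, Nr1d2, Clock and Npas2 held none of the searched letters in these windows. The matches overlapped in none of the stretches, and a match is a description of the letters, not of binding.

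On the log2 scale of the deposited values, array medians were 5.98 to 6.30 and 25th percentiles 4.27 to 4.32. A gene is counted below where its brighter array reached that array's median, and is called higher or lower at a difference of at least 2-fold (1 log2). For each gene the brightest of its probe sets was used. Of the 10 such probe sets, 6 lay at or above the median on all 4 arrays. Macrophage genes were bright and level: 17 of 18 measured were at or above the median of each array, the exception being Itgam, and list medians were 11.80 to 11.98. The Ets2 probe set read 13.24 and 12.97 on the remodeling arrays (expressing, then deficient) and 12.77 and 12.67 on the tumor arrays, so it did not separate the labels. Whether it lies in the deleted part is not given in the sources used here. For the Actb controls the 3' minus 5' difference, which can reflect RNA integrity, was 2.72, 2.96, 3.30 and 3.54 in that order. For the Gapdh controls it was 1.611, 1.798, 2.453 and 2.265, so the 2 controls ordered the tumor arrays differently. The part of these differences in the results below was not tested.

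The remodeling array labelled Ets2-expressing stood apart from the other 3 for most clock genes. Cry2, Per2, Nr1d1, Nr1d2 and Dbp were at least 2-fold higher there than on every other array. Arntl and Npas2 were at least 2-fold lower there than on every other array. Among 7473 genes that reached the median on at least 1 array, 2.32% were that far above the other 3 arrays on this array and 0.455% that far below. No clock gene stood 2-fold apart on any of the other 3 arrays. Of all bright genes, 0.0803% stood above and 1.95% below on the remodeling Ets2-deficient array, 0.107% and 0.161% on the tumor Ets2-expressing array, and 1.39% and 0.147% on the tumor Ets2-deficient array. Clock, Cry1 and Per1 were also highest on the remodeling Ets2-expressing array, by 0.10, 0.36 and 0.26 log2 over the next array.

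**Figure D1:**
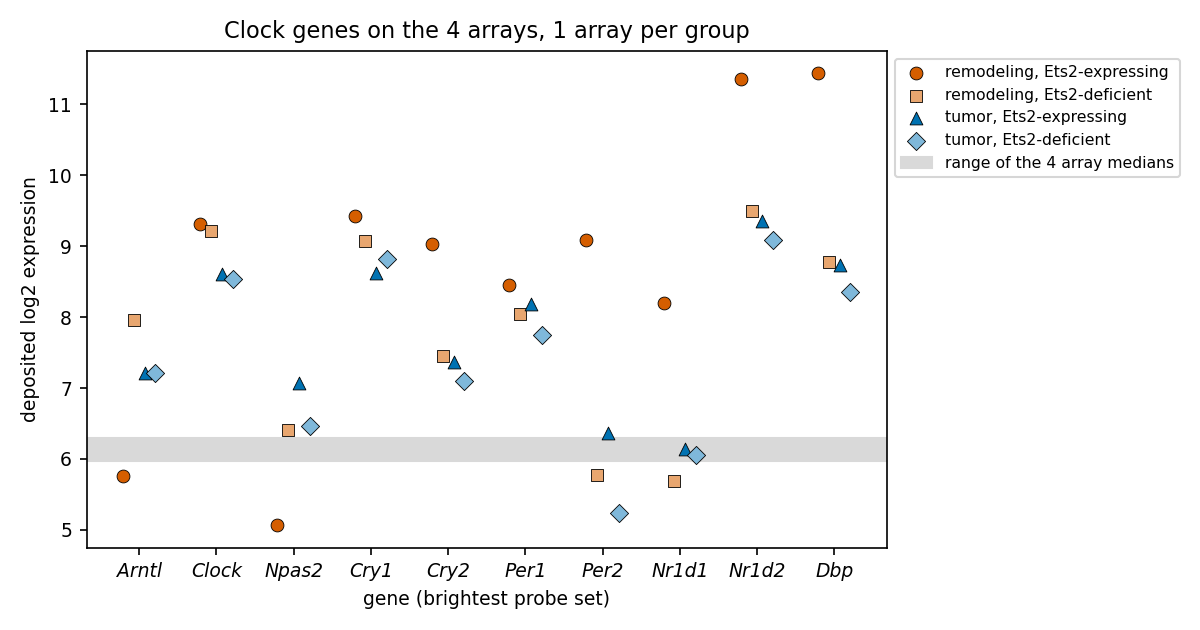
Deposited log2 expression (vertical axis) of the brightest probe set of each clock gene on the 4 arrays, 1 point per array, with the range of array medians in grey. The circles (remodeling, Ets2-expressing) lie apart from the other symbols for Arntl (5.76), Npas2 (5.07), Cry2 (9.03), Per2 (9.09), Nr1d1 (8.20), Nr1d2 (11.35) and Dbp (11.43), and near them for Clock, Cry1 and Per1.

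Among the activators, Arntl read 5.76 on the remodeling Ets2-expressing array, 7.96 on the remodeling Ets2-deficient array, and 7.21 on both tumor arrays. It was thus below the array median on the first array alone, highest on the second, and level between the tumor arrays. Npas2, a relative of Clock that can take its place beside ARNTL, read 5.07, 6.41, 7.07 and 6.47 in the same order of arrays. Like Arntl it was lowest on the remodeling Ets2-expressing array, but its highest value was on the tumor Ets2-expressing array. Clock itself read 9.32, 9.21, 8.61 and 8.53, slightly higher on both remodeling arrays than on both tumor arrays and little different with the Ets2 label.

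Of the repressors that inhibit the ARNTL pair, Per2 differed most. It read 9.09 on the remodeling Ets2-expressing array, 5.77 on the remodeling Ets2-deficient array, 6.37 on the tumor Ets2-expressing array and 5.23 on the tumor Ets2-deficient array. It lay below the array median on both Ets2-deficient arrays, so the size of those differences rests on dim values. Per1, which encodes a close relative of PER2, read 8.45, 8.05, 8.19 and 7.74 and spanned 0.71 log2 over the 4 arrays. Cry2, one of the cryptochrome repressors, read 9.03, 7.45, 7.37 and 7.10, high on the first array and within 0.35 log2 on the other 3. The other cryptochrome gene, Cry1, read 9.43, 9.07, 8.62 and 8.82, with no step as large as that of Cry2. Within the Per pair and within the Cry pair, then, 1 gene was far higher on the remodeling Ets2-expressing array and the other was not. Whether the genes of a pair differed was not tested.

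The REV-ERB genes and Dbp shared the pattern of Per2 and Cry2. Nr1d1 read 8.20, 5.70, 6.14 and 6.06, and it reached the array median on the first array alone. Nr1d2, its paralog, read 11.35, 9.49, 9.35 and 9.09. It was bright on all 4 arrays, so its difference does not rest on dim values. Dbp read 11.43, 8.77, 8.73 and 8.35, also bright throughout. For both Nr1d2 and Dbp the other 3 arrays lay within 0.40 and 0.42 log2 of each other, while the first lay 1.86 and 2.66 log2 above the next.

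The measurement error available was how far bright probe sets naming 1 gene lay apart, which leaves out mice, sorts and amplification. Its pooled standard deviation was 0.278 log2 in the remodeling Ets2 comparison (2482 genes), 0.338 in the tumor Ets2 comparison (2401 genes), 0.410 for the Ets2-expressing tumor array minus its remodeling counterpart (2480 genes) and 0.320 for the same between the Ets2-deficient arrays (2456 genes). Set against the largest of these, the gap between the remodeling Ets2-expressing array and its nearest neighbour exceeded the spread for Arntl, Npas2, Cry2, Per2, Nr1d1, Nr1d2 and Dbp. Neighbouring arrays differed by less than it at every step for Cry1 and Per1, and among the other 3 arrays for Cry2, Nr1d1, Nr1d2 and Dbp. Clock had a single larger step, 0.60 log2, between the remodeling and the tumor arrays. Per2 was the member for which every step was larger (2.72, 0.60 and 0.54 log2).

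In remodeling macrophages, 7 of the 10 clock genes were called between the array labelled Ets2-deficient and the Ets2-expressing array, 2 higher and 5 lower. All 10 were bright enough to count. Of the 7095 genes counted in this comparison, 6.48% were called, 1.31% higher and 5.17% lower. Arntl was 4.59-fold higher on the Ets2-deficient array (log2 difference 2.20) and Npas2 2.54-fold higher (1.34). Per2 was 9.98-fold lower (-3.32), Dbp 6.31-fold lower (-2.66), Nr1d1 5.68-fold lower (-2.51), Nr1d2 3.64-fold lower (-1.86) and Cry2 2.99-fold lower (-1.58). The other log2 differences were -0.10 for Clock, -0.36 for Cry1 and -0.41 for Per1. The median over the 10 genes was -0.99, beside 0.04 over all genes. Arntl and Npas2 lay above 0 and the other 8 genes below it, except that Clock lay at 0.09 after centring on array medians and at 0.10 after centring on the hybridization controls.

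In tumor macrophages, the same comparison of Ets2 labels called Per2 alone of the 9 clock genes that could be counted. Per2 was 2.20-fold lower on the Ets2-deficient array (log2 difference -1.14), just inside the 2-fold limit, with Npas2 next outside it at -0.60. Of 7225 genes counted, 2.99% were called, 2.23% higher and 0.761% lower. The deposited values of Arntl were equal on the tumor arrays (0.00), and Nr1d1, at -0.08, was too dim to count. Equal deposited values recurred for other genes, such as the NK cell gene Ncr1 (3.922 on all 4 arrays), and their origin was not examined. The remaining differences were -0.07 for Clock, 0.20 for Cry1, -0.27 for Cry2, -0.44 for Per1, -0.27 for Nr1d2 and -0.38 for Dbp. Their median with the others was -0.27, beside 0 over all genes. Arntl, Npas2, Nr1d1, Nr1d2, Dbp and Cry2, called in remodeling macrophages, were therefore not called here, and the difference between the settings was not tested.

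**Figure D2:**
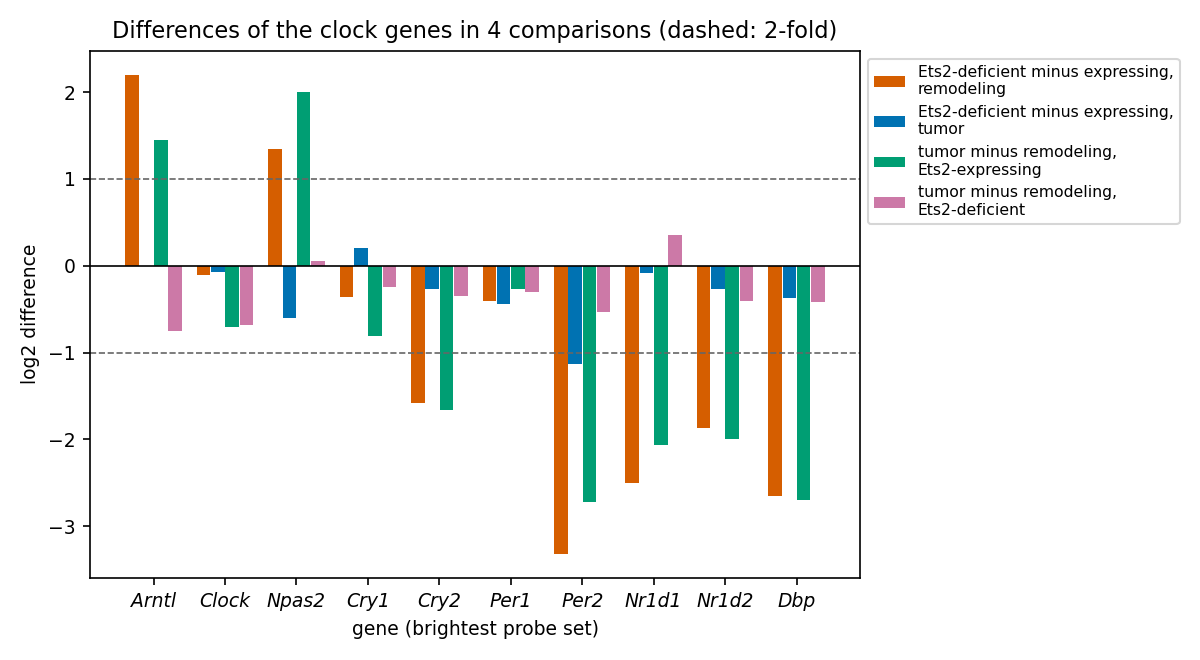
Log2 differences (vertical axis) of the 10 clock genes in 4 comparisons between arrays, 1 bar per comparison, with dashed lines at 2-fold. Bars of the remodeling Ets2 comparison and of tumor minus remodeling between the Ets2-expressing arrays, which share the remodeling Ets2-expressing array, pass the lines for 7 genes each; those of the tumor Ets2 comparison pass for Per2 (-1.14), and those of the Ets2-deficient arrays for none.

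Between tumor and remodeling macrophages, clock genes were called on the Ets2-expressing arrays but not on the Ets2-deficient arrays, and the difference between these outcomes was not tested. On the Ets2-expressing arrays 7 of 10 clock genes were called, against 11.4% of the 7253 genes counted (6.18% higher and 5.20% lower). Npas2 (log2 difference 2.0) and Arntl (1.45) were higher in tumor macrophages. Per2 (-2.72), Dbp (-2.70), Nr1d1 (-2.07), Nr1d2 (-2.0) and Cry2 (-1.67) were lower there. This comparison and the remodeling Ets2 comparison share the remodeling Ets2-expressing array, so their counts are not separate observations. On the Ets2-deficient arrays 0 of the 8 clock genes counted were called, against 9.22% of 7203 genes (7.61% higher and 1.61% lower), and the values ran from -0.75 (Arntl) to 0.36 (Nr1d1). Per2 and Nr1d1 were too dim to count there. The median over the 10 genes was -1.24 on the Ets2-expressing arrays and -0.38 on the Ets2-deficient ones, beside 0.08 and 0.01 over all genes.

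The spans of the clock genes restate how the remodeling Ets2-expressing array stood apart. Over all 4 arrays 7 clock genes spanned at least 2-fold, as did 22.6% of genes bright on at least 1 array. Without the remodeling Ets2-expressing array 1 did (Per2, 1.14 log2), against 12.9% of genes. Without any other single array the number was 7, as follows from the 7 genes that stood 2-fold apart on the remodeling Ets2-expressing array. The median span of the clock genes over those 3 arrays was 0.45 log2, and that of all bright genes was 0.48.

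**Figure D3:**
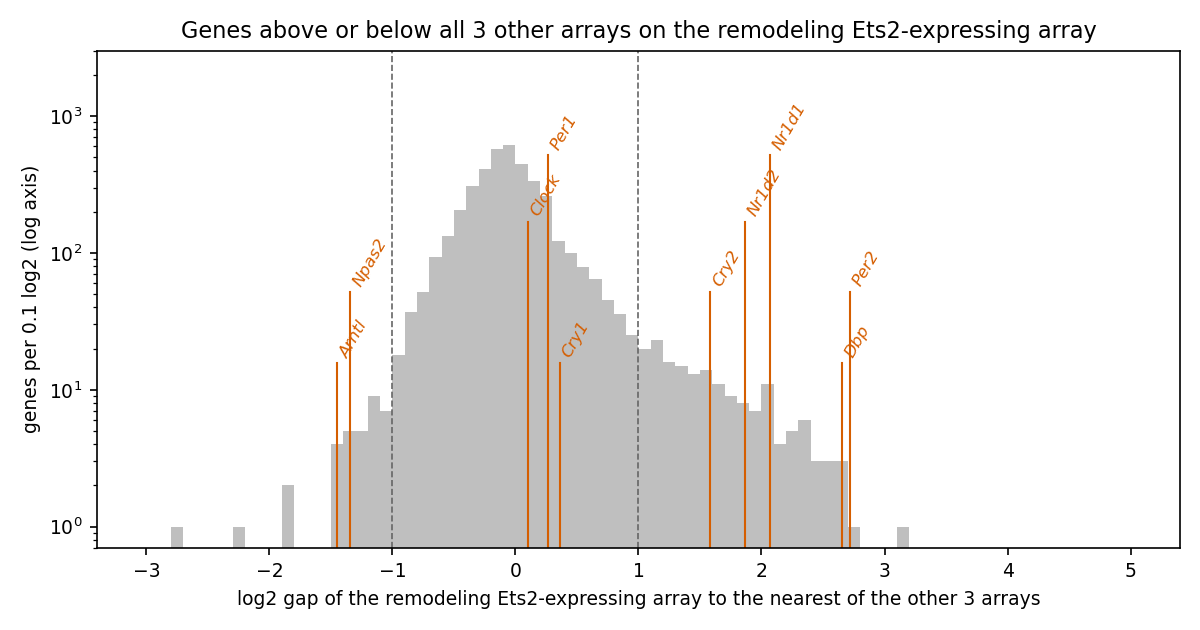
Histogram (log vertical axis, genes per 0.1 log2) of the gap between the remodeling Ets2-expressing array and the nearest of the other 3, for bright genes that lie above or below all 3; vertical lines mark the clock genes and dashed lines 2-fold. Arntl and Npas2 lie beyond the lower dashed line and Cry2, Nr1d2, Nr1d1, Dbp and Per2 beyond the upper one, while Clock, Per1 and Cry1 lie between the lines.

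Of the 10 genes, 5 were measured by a further probe set, and these differed in how far they followed the brightest. For Dbp the further probe set read 8.34, 6.26, 6.35 and 5.65, again high on the remodeling Ets2-expressing array. Its difference with the Ets2 label in remodeling macrophages was -2.08, beside -2.66 for the brightest, whose _s_at suffix marks a set that may match transcripts of more than 1 gene. For Nr1d2 the further probe set gave -1.27 in remodeling macrophages, but it was below the median on all 4 arrays and below the 25th percentile on 3. The further probe sets of Per2 (-0.14; 4.09 to 4.44) and Npas2 (-0.12; 4.84 to 4.98) were dim on all 4 arrays and showed no such difference. The calls for Per2 and Npas2 therefore rest on 1 probe set each, as do those for Arntl, Cry2 and Nr1d1, which had no other. For Clock the further probe set gave -0.49 in remodeling macrophages and was lowest on the tumor Ets2-expressing array (5.88). For tumor minus remodeling between the Ets2-expressing arrays it gave -1.21, past the 2-fold limit, beside -0.71 for the brightest.

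**Figure D4:**
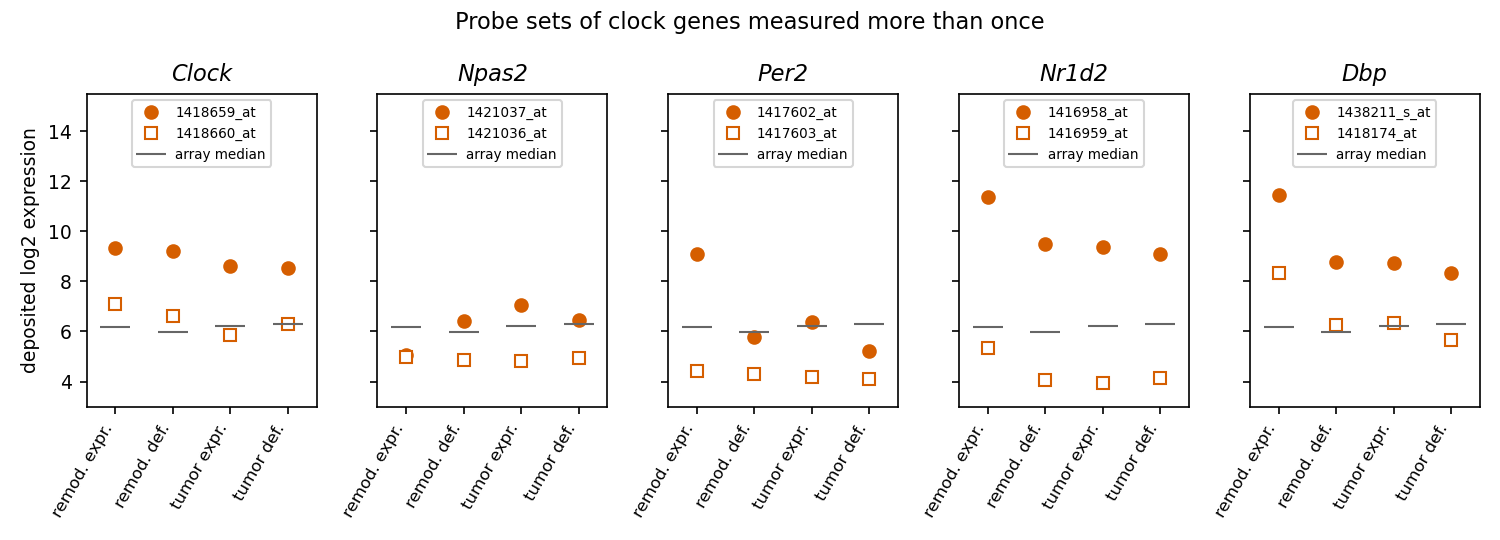
Deposited log2 expression (vertical axis) of both probe sets of the 5 clock genes measured more than once, on the 4 arrays (horizontal axis), with each array's median as a dash. Filled circles are the brightest probe set and open squares the further one: both are high on the remodeling Ets2-expressing array for Dbp (11.43 and 8.34), while the squares of Per2 and Npas2 lie below the medians on all arrays.

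Other genes of the clock network were read from lists chosen by function. Of 12 further clock transcription factors and regulators, 10 were measured and 6 were bright enough to count in the remodeling Ets2 comparison. There 3 were called lower and 0 higher. Of all genes counted in that comparison, 5.17% were called lower and 1.31% higher, and the same shares apply to the lists that follow. Per3, the other Period gene, read 8.23, 6.83, 6.44 and 5.88 on the arrays in the order above. Tef, a D-box factor of the same family as Dbp, read 9.86, 8.18, 8.44 and 7.80. Both were thus highest on the remodeling Ets2-expressing array, by 1.40 and 1.42 log2 over the next. Rora, which encodes an activator at ROR elements, was called lower just past the limit (-1.01), with the tumor arrays between the remodeling ones. Per3 (-1.79) and Tef (-1.42) were also the 2 of this list called lower in tumor than in remodeling macrophages on the Ets2-expressing arrays. Nfil3, a repressor at D-boxes, behaved otherwise: it was 2.30-fold higher on the tumor Ets2-deficient array (10.30) than on the tumor Ets2-expressing array (9.10). The median of this list in the remodeling Ets2 comparison was -0.18.

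Genes for the turnover of clock proteins differed little with the Ets2 label. Of 11 measured, 9 could be counted and 1 was called lower in the remodeling Ets2 comparison (median of the list -0.14), with none called in the tumor Ets2 comparison. The exception was Usp2, which encodes a deubiquitinase and read 8.35, 6.61, 7.40 and 7.71. Usp2 was also called higher for tumor minus remodeling between the Ets2-deficient arrays (1.10). The casein kinase gene Csnk1d, whose product phosphorylates PER proteins, read 10.54, 10.26, 10.24 and 10.53. Among 13 genes measured of a list tied to clock output, 1 was called higher and 3 lower in the remodeling Ets2 comparison (median -0.54). Wee1, an inhibitory kinase of the cell cycle, read 9.40 on the remodeling Ets2-expressing array and 7.80, an equal deposited value, on each of the other 3. Klf9, a Krüppel-like factor gene, was lower on the remodeling Ets2-deficient array (-1.17) and the cytokine gene Il6 was lower as well (-1.62). Sesn1, a stress-response gene, was higher (1.76). In tumor macrophages none of these 13 was called with the Ets2 label. For tumor minus remodeling between the Ets2-expressing arrays, 1 of the 13 was called higher and 4 lower, beside 6.18% and 5.20% of all genes counted. The chemokine gene Ccl2 was called lower there (-1.56) and between the Ets2-deficient arrays (-1.02).

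Glucocorticoids also switch on Per1 and other genes, and 12 genes that respond to them were set beside the clock genes. All 12 were bright enough to count in the remodeling Ets2 comparison. There 3 were called lower and 0 higher (median -0.48), beside 5.17% and 1.31% of all genes counted. The 3 were Fkbp5, a co-chaperone of the receptor (-1.90), the metallothionein gene Mt2 (-1.68) and Klf9. Per1 and Tsc22d3, which are on the same list, differed by -0.41 and -0.58 and were not called. For tumor minus remodeling between the Ets2-expressing arrays, 3 of 12 were called lower, beside 5.20% of all genes counted. They were Fkbp5 (-2.56), the transcription factor gene Zbtb16 (-1.34) and Klf9 (-1.02). Between the Ets2-deficient arrays, Fkbp5 (-1.28) and Zbtb16 (-1.70) were called lower and Mt2 (1.18) higher, beside 1.61% and 7.61% of all genes counted. Immediate early genes, which rise when tissue is dissociated, had a median of 0.09 in the remodeling Ets2 comparison with 0 of 18 counted called. Fos read 12.57, 12.85, 12.77 and 12.60, level across the arrays.

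Genes of some other cell types also differed between the remodeling arrays, and the fibroblast median was lowest on the Ets2-deficient one. All 17 fibroblast genes were lower on the remodeling Ets2-deficient array than on the Ets2-expressing one, and 15 were called lower (median -2.14). Their median level was 9.55 (range 5.23 to 12.32) on the remodeling Ets2-expressing array, 7.24 (4.31 to 11.16) on the Ets2-deficient one, and 8.77 (5.05 to 11.77) and 9.09 (4.99 to 11.76) on the tumor arrays. Of 9 mast cell genes, 5 were called lower (median -1.08), with median levels of 7.01, 5.08, 5.51 and 5.49. In sorted bulk RNA, fewer cells of a type and less RNA per cell cannot be told apart. The part of these cells in the clock gene values was not tested. For tumor minus remodeling between the Ets2-expressing arrays, 9 fibroblast genes were called lower and 17 of 17 lay below 0 (median -1.21), beside 5 clock genes called lower and 2 higher (median -1.24). Between the Ets2-deficient arrays, 7 fibroblast genes were called higher and 17 of 17 lay above 0 (median 0.76), beside 0 clock genes called (median -0.38). All 8 measured B cell genes lay above 0 in the remodeling Ets2 comparison (median 0.65, 2 called higher of 5 counted). They also did for tumor minus remodeling between the Ets2-expressing arrays (median 0.92, 2 called higher of 6 counted). B cell median levels were 5.60 and 6.14 on the remodeling arrays (expressing, then deficient) and 7.21 and 6.72 on the tumor arrays. Their part in the clock gene values was not tested either. Mammary epithelial genes were higher on both tumor arrays (medians 7.60 and 8.87) than on the remodeling arrays (5.00 and 4.81).

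**Figure D5:**
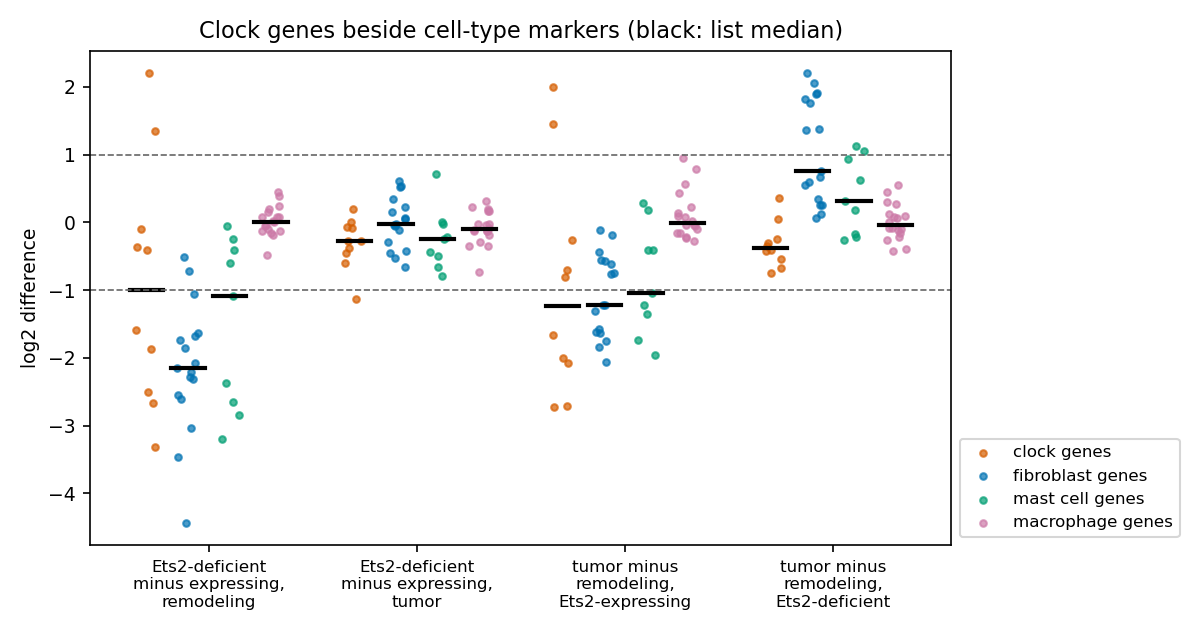
Log2 differences (vertical axis) of clock genes, fibroblast, mast cell and macrophage genes in 4 comparisons, 1 point per gene, with list medians as black bars and dashed lines at 2-fold. Clock genes spread to both sides in the comparisons that use the remodeling Ets2-expressing array; fibroblast medians are -2.14, -0.02, -1.21 and 0.76 from left to right, while macrophage medians stay between -0.10 and 0.01.

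For the 5 clock genes that spanned at least 2 log2, the genes with the most similar profile over the 4 arrays were found by the root mean square distance after centring each gene on its own mean, among 7472 others. Arntl was nearest to Sesn1 (distance 0.20 log2), Zik1 (0.22) and Gpr155 (0.26). Per2 was nearest to the ferroxidase gene Heph (0.29), to Dbp (0.36) and to Aif1l (0.41). Nr1d1 was nearest to Mpdz (0.027), Omd (0.057) and the matrix proteoglycan gene Dcn (0.087), which is on the fibroblast list. Nr1d2 was nearest to the growth factor gene Hbegf (0.040), Il6 (0.12) and Aoc3 (0.12). Dbp was nearest to the interferon gene Ifnb1 (0.17), the cytokine gene Csf3 (0.17) and Krtdap (0.19). The latter 2 were dim on the other 3 arrays (4.06 to 4.13). Ifnb1, Heph, Mpdz and Omd also lay below the array medians on those 3 arrays. A profile of 4 values is short, and how many genes lie close to it by this measure was not counted.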

How the data were processed

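Gene expression was measured on 4 Affymetrix mouse arrays, 1 per group. Per the labels' protocols, sorted cells gave RNA of which about 10 ng was amplified as cDNA and labelled with biotin. The authors deposited log2 values for 22690 probe sets, from 2.75 to 14.9, and GCOS and RMA are named in the submitters' processing notes. Their roles and versions, and whether the arrays were normalized together, are not given in the sources used here. The values were used as deposited.

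Probe sets naming exactly 1 gene (20380) were joined to mouse gene names by Entrez identifier, which changed 0 symbols, and 64 controls were left out. The probe set with the highest mean stood for a gene. Differences were called at 2-fold where the brighter array reached its median. No test was run: pairwise differences of single arrays have no residual degrees of freedom, and an additive fit over the 4 arrays was not made. The number of arrays limits the precision. The members and lists were chosen with earlier results of these data known. Genes named beyond the 10 are called members of the network lists, up to 5 a list, and the 3 nearest profiles. Fos, Csnk1d and uncalled genes were named after their values were seen. The calls were checked on simulated data with numpy 2.4.6 and pandas 2.3.3. Alternatives were 3 scalings, 2 brightness limits, a 1.5-fold threshold, the mean over probe sets and leaving out arrays. No positions other than RefSeq promoter stretches (GRCm38.p6) are given.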

Additional observations from a re-analysis of the deposited data

Results flagged for a closer look

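Npas2 was the clock gene whose difference with the Ets2 label ran in opposite directions in the 2 settings by at least 1.5-fold in each. It was 1.34 log2 higher on the Ets2-deficient array in remodeling macrophages and 0.60 log2 lower in tumor macrophages (-0.60). The tumor difference minus the remodeling difference was -1.94. With 1 array per group this difference was not tested. The further Npas2 probe set, dim on all 4 arrays, gave -0.12 and 0.10. The tumor difference of Npas2 fell short of 1.5-fold after centring on the hybridization controls (-0.55) and with the mean over probe sets (-0.25). It stayed past that limit under median centring (-0.68) and quantile normalization (-0.70).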

How the results depend on the processing

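The counts of 7 called clock genes in the remodeling Ets2 comparison and 7 for tumor minus remodeling between the Ets2-expressing arrays were the same under median centring, quantile normalization, centring on the hybridization controls and no brightness limit. Under these, 5.08% to 6.86% and 8.72% to 11.4% of all genes counted were called. At 1.5-fold the counts were 7 and 9, where 16.3% and 29.8% of all genes counted were called. With the mean over probe sets they were 6 and 6 (5.43% and 9.60%), Npas2 no longer being called. With the limit at the 75th percentile they were 4 and 4 (3.90% and 6.96%), since fewer genes were counted. That limit gave 0 in the tumor Ets2 comparison (1.57% of all genes), as did the mean over probe sets (2.30%). There 1.5-fold gave 2 (15.3% of all genes). On the Ets2-deficient arrays, tumor minus remodeling gave 1 called gene after median centring (Arntl, lower; 10.7% of all genes) and 2 at 1.5-fold (23.7%). Of the 5 genes above and 2 below all other arrays on the remodeling Ets2-expressing array, the counts were 4 and 0 at the 75th percentile and 5 and 1 with the mean over probe sets. These counts, and leaving out arrays, were added after the data were seen; leaving out 1 array gave from 1 to 7 genes spanning 2-fold. Centring on array medians moved the median of all genes from 0.04 to 0.23 in the remodeling Ets2 comparison and from 0.01 to -0.31 for tumor minus remodeling on the Ets2-deficient arrays. The small Npas2 difference in the latter changed sign with it (0.06 to -0.26), and so did that of Clock in the remodeling Ets2 comparison (-0.10 to 0.09). With the mean over probe sets Clock changed sign in the tumor Ets2 comparison (-0.07 to 0.18). Of 160 single-gene values under the alternatives, 150 moved by less than the pooled probe set spread and 10 by more. No called gene changed direction. Both centrings shift all genes of a comparison by 1 amount. With the mean over probe sets, the 5 genes with 1 probe set kept their values. The 150 is therefore no measure of robustness. The 10 were values of Npas2, Per2, Nr1d2 and Dbp with that mean, and of Per2 and Nr1d1 under quantile normalization. Means over probe sets drew in dim probe sets: Per2 was then -1.73 and Npas2 0.61 in the remodeling Ets2 comparison. No paired analysis was run, as the labels give no replicate numbers and each group had 1 array.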
